A study of Mus musculus with 4 samples.

Results

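The phagocyte NADPH oxidase and enzymes that remove superoxide or hydrogen peroxide were followed through 9 genes in BV-2 cells. BV-2 is an immortalised mouse microglial line that serves as a model of brain macrophages. The genes were taken by symbol from a deposited table of read counts per RefSeq transcript record, with the most abundant record standing for each gene, and they are 9 of the 23783 genes that the table covers. They comprise 5 subunit genes of the oxidase (Cybb, Cyba, Ncf1, Ncf4 and Rac2) and 4 antioxidant enzyme genes (Sod1, Sod2, Gpx1 and Cat). The series holds 4 RNA-seq libraries, 2 of control cells and 2 of cells given lipopolysaccharide (LPS), a component of the Gram-negative bacterial wall, at 10 ng/ml for 4 h. The controls also carry 4 h in their titles, and no vehicle is named for them. All cells belong to the 1 line and were grown in medium with fetal bovine serum. Nothing in the labels says that replicates were separate cultures, so the p-values below measure the spread between these libraries, which may be technical. The growth text also speaks of mixed glial cultures, although each library is labelled as the cell line.

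The oxidase is a membrane enzyme of phagocytes that passes electrons from NADPH to oxygen and so makes superoxide, used against microbes and, in microglia, also known for its part in injury to nearby neurons. Its catalytic core is a heterodimer of NOX2, encoded by Cybb, and its partner p22phox, encoded by Cyba. On activation, cytosolic proteins, among them those encoded by Ncf1 and Ncf4, and a Rac GTPase join the core. Superoxide dismutases turn superoxide into hydrogen peroxide, which catalase, glutathione peroxidases and peroxiredoxins then remove.

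The stretches of genome just before the transcript starts of the catalytic pair and of the dismutase pair are shown because 1 gene of each pair rose after LPS and its partner did not pass the test. They are the 250 bases before the RefSeq start (assembly GRCm38.p6, the assembly behind mm10), written 5′ to 3′ along the gene. Of the 9 genes, 7 had such a window. That of Cybb precedes a start inside the annotated gene span, which reaches further upstream. Capitals mark matches, on either strand, to 6 motifs: the NF-kB consensus, the GC box GGGCGG, the CCAAT box CCAAT, the TATA box TATAAA, the PU.1 core GAGGAA and TGACNNNGC, the core of the antioxidant response element bound by NRF2. Matches that overlap run together in capitals.
Cybb (chrX:9469325-9469574, minus strand): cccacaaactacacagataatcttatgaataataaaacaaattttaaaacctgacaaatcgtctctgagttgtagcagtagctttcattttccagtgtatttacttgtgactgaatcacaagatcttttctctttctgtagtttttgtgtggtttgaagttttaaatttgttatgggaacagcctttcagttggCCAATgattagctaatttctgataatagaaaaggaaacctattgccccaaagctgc
Cyba (chr8:122432941-122433190, minus strand): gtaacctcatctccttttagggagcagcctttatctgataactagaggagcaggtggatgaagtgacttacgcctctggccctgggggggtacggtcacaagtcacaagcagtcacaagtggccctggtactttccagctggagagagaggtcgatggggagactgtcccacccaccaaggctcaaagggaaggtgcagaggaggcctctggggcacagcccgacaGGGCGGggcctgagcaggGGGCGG
Sod2 (chr17:13007589-13007838, plus strand): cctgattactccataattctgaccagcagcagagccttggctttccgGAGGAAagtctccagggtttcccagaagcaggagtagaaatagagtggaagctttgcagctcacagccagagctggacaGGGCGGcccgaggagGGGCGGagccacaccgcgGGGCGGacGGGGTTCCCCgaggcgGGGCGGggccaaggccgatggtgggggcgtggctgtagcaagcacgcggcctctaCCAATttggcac
Sod1 (chr16:90220512-90220761, plus strand): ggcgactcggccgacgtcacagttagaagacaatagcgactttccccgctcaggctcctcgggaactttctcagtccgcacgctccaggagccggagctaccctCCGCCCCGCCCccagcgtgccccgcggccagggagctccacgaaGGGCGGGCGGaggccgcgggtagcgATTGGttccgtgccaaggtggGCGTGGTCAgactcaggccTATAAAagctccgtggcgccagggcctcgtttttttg
The Sod2 window held 1 match to the NF-kB consensus, GGGGTTCCCC, from base 83 to base 74 before the start, with 4 GC boxes around it, 1 CCAAT box and 1 PU.1 core. The Sod1 window held 4 GC boxes, 1 CCAAT box, a TATA box from base 37 to base 32 and the sequence TGACCACGC on the opposite strand, and none of the NF-kB consensus. The Cybb window held a CCAAT box from base 56 to base 52 and no other match, and it was 34.0% G and C against a median of 52.4% over all windows. The Cyba window held 2 GC boxes. Among the windows not printed, that of Gpx1 held 1 match to the NF-kB consensus, and that of Ncf1 held 1 GC box. The Cat window, also not printed, held 1 match to the NF-kB consensus, 1 GC box, 4 CCAAT boxes and 1 PU.1 core. Over 32851 windows of the same length, 7.25% held the NF-kB consensus, 32.7% a GC box, 33.8% a CCAAT box, 12.4% a TATA box, 23.3% the PU.1 core and 10.2% the antioxidant element core. A match is a description of the letters and not a measured binding site, and both genes with the consensus in the windows not printed are ones whose change did not pass the test.

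Library totals ran from 2778686 to 3368693 counts, of which 5 records took 53.4% to 67.5%, so that 902176 to 1425303 counts were left for all other records. After a filter on low counts 6981 records were tested. Levels are given as normalised counts, obtained by dividing each count by its library's TMM-scaled size and multiplying by the mean of those sizes. Changes are log2 fold changes of LPS over control from edgeR's quasi-likelihood test, with p-values adjusted by the Benjamini-Hochberg method over all 6981 records and a threshold of 0.05. The control libraries differed more than the LPS libraries, and their ratio followed base composition. Across 6924 records, which are not independent of each other, Spearman's rho between transcript GC and the ratio of replicate 2 to replicate 1 was -0.662 in controls and -0.266 after LPS.

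Of the 8 genes of the set that were tested, 3 rose after LPS (Sod2, Cybb and Ncf4), none fell, and 5 did not pass (Cyba, Rac2, Sod1, Gpx1 and Cat). None of the 8 was lower at an unadjusted p below 0.05 either, and none was called lower by DESeq2 or limma-voom. Over all 6981 records tested, edgeR called 3.82% higher and 1.7% lower, or 5.53% in either direction. DESeq2 called 66 of these records lower and limma-voom 105. At an unadjusted p below 0.05 in edgeR's test there were 1076 in either direction. With so few lower calls over all records, none among 8 genes is not read as a result. The median log2 fold change of the 8 genes was 0.30, against -0.01 over all records. LPS libraries lay above both controls without overlap in 4 of the 8 genes, which is the case for 21.4% of all records tested, and below both controls in none of the 8, against 21.9% of all records. Without control replicate 1, Cyba and Rac2 were called higher as well, which made 5. In every fit with 1 library left out, its group is a single library assumed to vary like the other group, which alone supplies the spread. Without a control the spread is that of the close LPS pair, and calls over all records went from 267 higher and 119 lower to 630 and 492 without control replicate 1 and to 723 and 581 without control replicate 2. Without an LPS library it is that of the wider control pair, and they went to 182 and 51 or 165 and 39. A call gained or lost in such a fit is thus no sign by itself of a stronger or weaker change. The counts of the 9 genes made up 0.273% to 0.306% of the counts outside the 5 leading records in the controls and 0.447% in both LPS libraries.

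**Figure D1:**
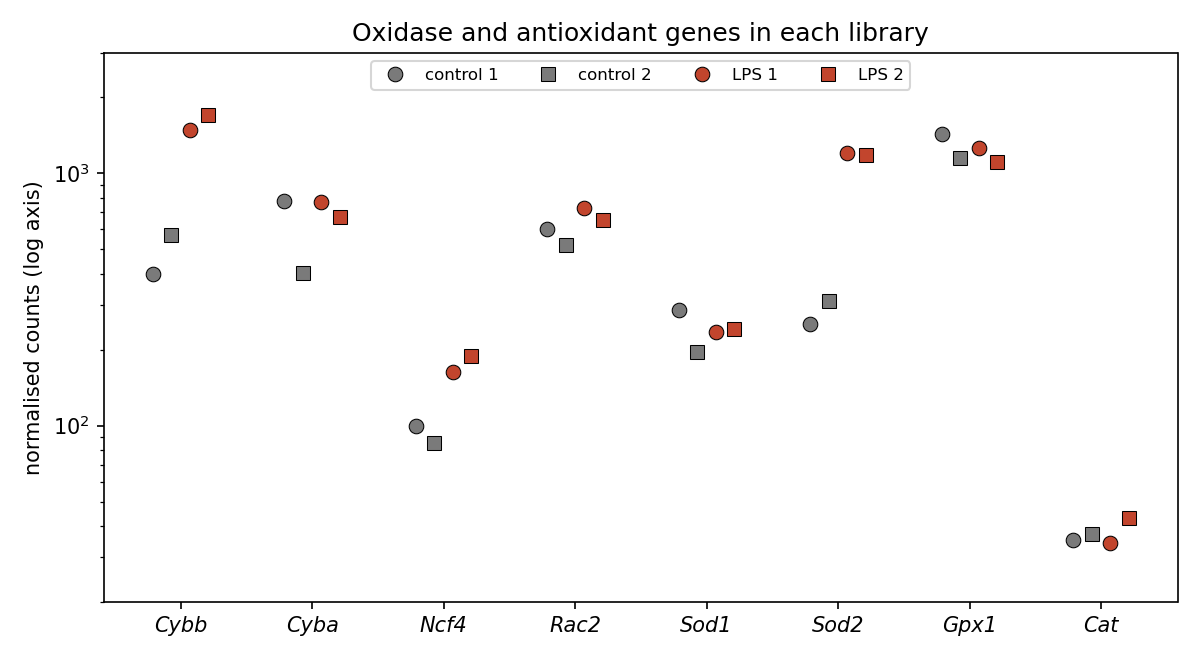
Normalised counts (vertical, log axis) of the 8 tested genes (horizontal) in each of the 4 libraries, with grey points for controls, red points for LPS, circles for replicate 1 and squares for replicate 2. The LPS points of Cybb, Sod2 and Ncf4 lie above both controls with a wide gap, those of Rac2 with a narrow one, and in the other genes the groups overlap. Ncf1 had 0 counts in every library and is not drawn.

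Cybb, the gene of the catalytic subunit (NM_007807, chromosome X, 9435252 to 9487766), had 398 and 571 normalised counts in the control libraries and 1492 and 1703 after LPS. Both LPS values were above both controls, and the gap between the groups was wider than either group. The mean went from 485 ± 123 to 1597 ± 149 (SD, n = 2), a 3.30-fold difference of the means and a log2 fold change of 1.71 (SE 0.21, 95% interval 1.25 to 2.18, adjusted p 0.00039). By counts, which favour long transcripts, Cybb moved from place 480 among the tested records in the controls to place 115 after LPS. Its gain of 1113 normalised counts was the 17th largest of all records. The Cybb transcript is 42.4% G and C, in the range where control replicate 1 was low. The 969 records below 43% had a median log2 ratio of control replicate 2 over replicate 1 of 0.72, and Cybb had 0.52. With the trends on GC content and length removed, the log2 fold change of Cybb was 1.62. Leaving out 1 library at a time gave 1.49 to 2.00, and the call was kept in each case.

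Cyba, the gene of the partner subunit (NM_007806, chromosome 8, 122424771 to 122432940), had 779 and 403 normalised counts in the controls and 771 and 673 after LPS. The control values lay on either side of the LPS values. Its mean was 591 ± 266 in controls and 722 ± 69.5 after LPS (n = 2), with a log2 fold change of 0.30 (SE 0.27, 95% interval -0.29 to 0.89, adjusted p 0.742). The value depends on which control is kept. It was 0.85 without control replicate 1 and -0.11 without control replicate 2, with adjusted p of 3.24e-08 and 0.625 in which the LPS pair alone gives the spread. The Cyba transcript is 59.3% G and C, and its log2 ratio of control replicate 2 over replicate 1 was -0.95.

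Ncf4, which encodes p40phox, a cytosolic subunit that binds phosphoinositides of the phagosome membrane (NM_008677, chromosome 15, 78244164 to 78262582), had 99.9 and 85.2 normalised counts in the controls and 164 and 189 after LPS. The groups did not overlap. The mean went from 92.6 ± 10.3 to 176 ± 17.7 (n = 2), a 1.90-fold difference and a log2 fold change of 0.94 (SE 0.22, 95% interval 0.45 to 1.42, adjusted p 0.0281). This call was lost in 3 of 15 alternatives, whereas those of Cybb and Sod2 were lost in none. The adjusted p was 0.0692 in the DESeq2 Wald test, 0.2 without LPS replicate 1 and 0.546 without LPS replicate 2, with log2 fold changes of 0.94, 1.05 and 0.84. In the last 2 fits the control pair alone gives the spread.

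Ncf1, the gene of the organiser subunit p47phox (chromosome 5, 134220053 to 134229628), is listed at 0 counts in all 4 libraries in each of its 3 records, NM_010876, NM_001286037 and NR_104383. A count of 0 allows up to 3 counts, which is 2.53 to 4.22 normalised counts per library, and this covers counting error only. Genes with several records were rarely counted in this table. Of 16010 coding genes with 1 coding record, 46.3% had a total of at least 10 counts, against 14.9% of 4391 coding genes with several. Mapk14 and Akt1, kinase genes that most cells use, also have several records each and stand at or near 0. The zeros of Ncf1 are therefore no measurement of its expression, and whether LPS changed it was not tested.

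Rac2, the Rac GTPase of blood cells (NM_009008, chromosome 15, 78559169 to 78572783), had 599 and 522 normalised counts in the controls and 729 and 652 after LPS. The LPS values were above both controls by a narrow gap. The mean went from 560 ± 54.9 to 690 ± 53.9 (n = 2) with a log2 fold change of 0.30 (SE 0.18, 95% interval -0.09 to 0.70, adjusted p 0.516). Without control replicate 1 it was 0.41 with an adjusted p of 0.0182, where the LPS pair alone gives the spread. Rac1, the GTPase found in most cell types, had 437 and 392 normalised counts in the controls and 466 and 434 after LPS, and its log2 fold change was 0.12 with an adjusted p of 0.879.

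**Figure D2:**
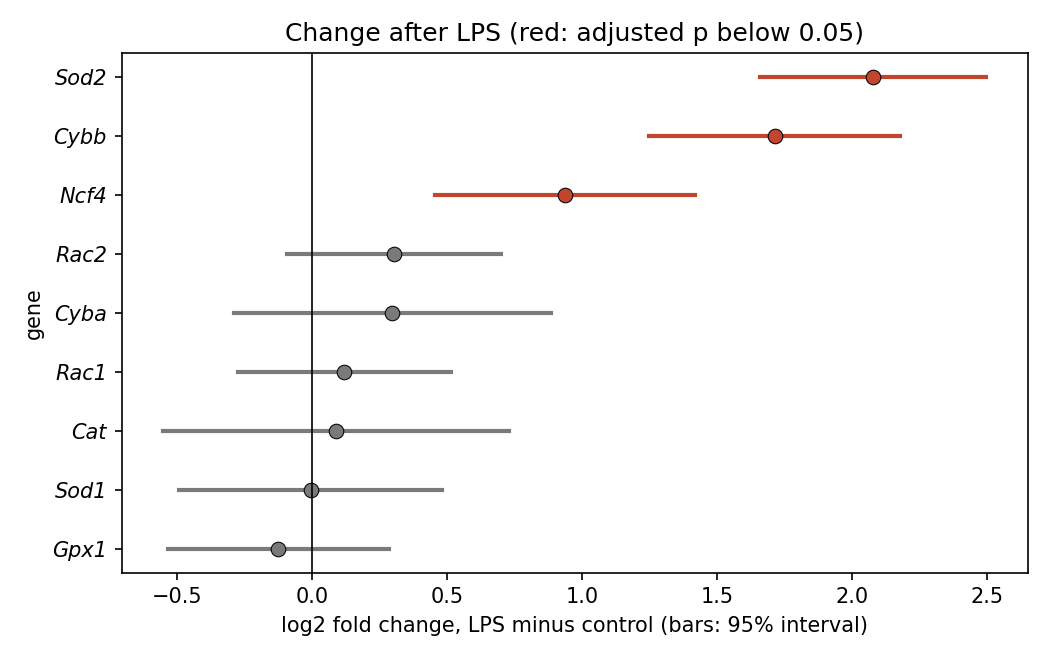
Log2 fold changes of LPS over control (horizontal) for the 8 tested genes and for Rac1 (vertical), with points for the fitted value, bars for the 95% interval, and red for an adjusted p below 0.05 in edgeR's test. The intervals of Sod2, Cybb and Ncf4 lie above 0, and all others include 0.

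Sod2, the manganese dismutase of the mitochondrial matrix (NM_013671, chromosome 17, 13007839 to 13018119), had the largest change of the set. It had 252 and 311 normalised counts in the controls and 1206 and 1186 after LPS, so that the groups were far apart and the LPS libraries nearly equal. The mean went from 282 ± 42.2 to 1196 ± 13.7 (n = 2), a 4.25-fold difference and a log2 fold change of 2.08 (SE 0.19, 95% interval 1.66 to 2.50, adjusted p 3.75e-05). Its gain of 914 normalised counts was the 21st largest of all records, and by counts it moved from place 923 to place 173. The Sod2 transcript is 42.2% G and C, close to that of Cybb. With the GC and length trends removed the log2 fold change of Sod2 was 2.01, and leaving out 1 library at a time gave 1.95 to 2.24 with the call kept. The 969 records below 43% GC had a median log2 fold change after LPS of 0.07, and 3.30% of them were called higher.

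Sod1, the copper and zinc dismutase of the cytosol (NM_011434, chromosome 16, 90220762 to 90226333), had 287 and 195 normalised counts in the controls and 236 and 241 after LPS. The LPS values lay between the controls. The log2 fold change of Sod1 was -0.0053 (SE 0.22, 95% interval -0.49 to 0.48, adjusted p 0.996). Its interval and that of Sod2 do not overlap. The difference between these genes was not tested over samples. No exact permutation test was run, because with 2 against 2 libraries its smallest two-sided p is 0.33. Ccs, the copper chaperone of the Sod1 enzyme, had 71.7 and 52.3 normalised counts in the controls and 65.6 and 46.9 after LPS. Sod3, the secreted dismutase, is listed at 0 in all 4 libraries in its 1 record, which allows up to 3 counts in each.

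Gpx1, the cytosolic and mitochondrial glutathione peroxidase, a selenoprotein (NM_008160, chromosome 9, 108339080 to 108340342), had 1430 and 1154 normalised counts in the controls and 1256 and 1112 after LPS. The groups overlapped. Its mean was 1292 ± 196 in controls and 1184 ± 102 after LPS (n = 2), with a log2 fold change of -0.12 (SE 0.19, 95% interval -0.53 to 0.28, adjusted p 0.879). Cat, the gene of peroxisomal catalase (NM_009804, chromosome 2, 103453904 to 103485153), had 35.2 and 37.1 normalised counts in the controls and 34.2 and 43 after LPS, the lowest values of the 8 tested genes. They rest on 25 to 44 reads per library. The log2 fold change of Cat was 0.09 (SE 0.29), and the 95% interval from -0.55 to 0.73 was the widest of the set (adjusted p 0.954).

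Levels of different genes were set side by side as normalised counts per kilobase. The length was that of the longest GENCODE M21 transcript paired with each RefSeq record, since the annotation used for counting is not given. In the controls Gpx1 was highest with 1205 ± 183 per kilobase (SD, n = 2), followed by Cyba with 794 ± 358 and Sod1 with 376 ± 101. Rac2 had 184 ± 18.1, Cybb 102 ± 25.8, Ncf4 63.2 ± 7.06, Sod2 48.0 ± 7.20 and Cat 13.8 ± 0.533 per kilobase. For comparison, Rac1 had 99.8 ± 7.65 per kilobase, and the control libraries of Cybb and Rac1 overlapped. After LPS the order was Gpx1 with 1105 ± 95.3 per kilobase, Cyba with 970 ± 93.4, Sod1 with 372 ± 5.32, Cybb with 336 ± 31.3, Rac2 with 227 ± 17.7, Sod2 with 204 ± 2.33, Ncf4 with 120 ± 12.1 and Cat with 14.8 ± 2.39. No neighbours in this order overlapped in the LPS libraries, although the lower Gpx1 library (1037 per kilobase) and the higher Cyba library (1036) were nearly equal.

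Within each library the catalytic gene stood below its partner and Sod2 below Sod1, in LPS libraries too, by counts per kilobase. This order rests on the lengths used, 4752 bases for Cybb against 744 for Cyba and 5861 for Sod2 against 641 for Sod1. By normalised counts, not divided by length, Cybb stood above Cyba and Sod2 above Sod1 in both LPS libraries. The ratios and shares below depend on these lengths in the same way. The ratio of Sod2 to Sod1 was 0.0960 and 0.175 in the controls and 0.559 and 0.539 after LPS. Sod2 thus made up 8.76% and 14.9% of the summed level of these dismutase transcripts in the controls and 35.9% and 35.0% after LPS. The ratio of Cybb to Cyba was 0.0800 and 0.222 in the controls and 0.303 and 0.396 after LPS, where the control libraries differed from each other by more than control replicate 2 did from LPS replicate 1. The ratio of Rac2 to Rac1 was 1.88 and 1.82 in the controls and 2.14 and 2.06 after LPS, and that of Gpx1 to Cat ran from 63.0 to 99.2 over the 4 libraries with the groups overlapping. No test was made on ratios.

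**Figure D3:**
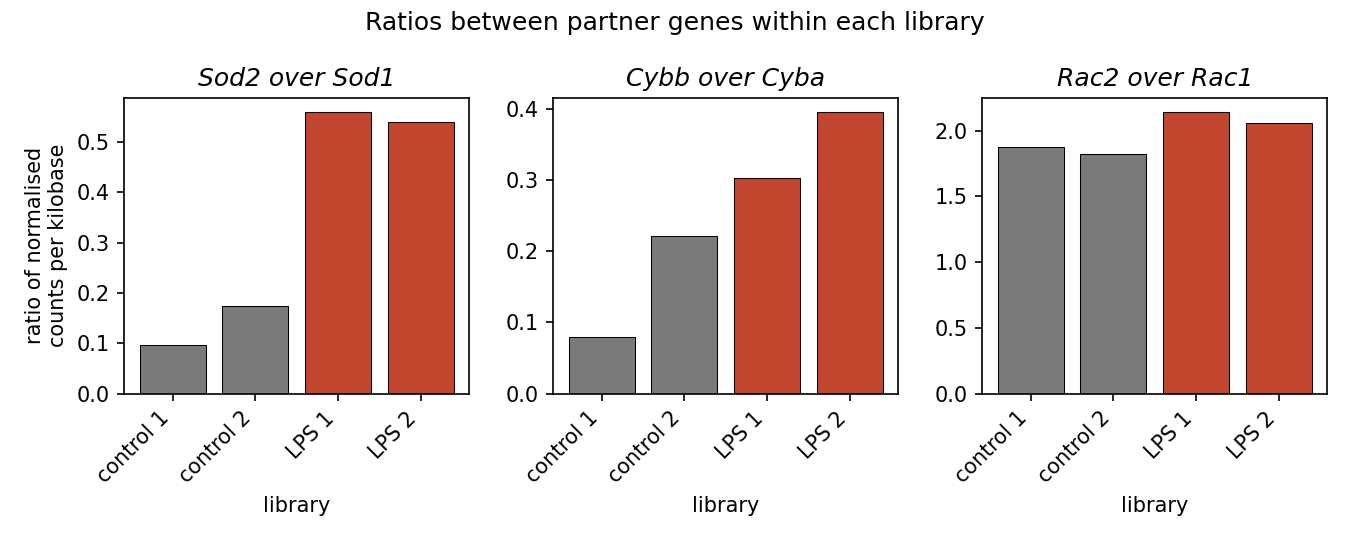
Ratios of normalised counts per kilobase (vertical, from 0) in each library (horizontal) for Sod2 over Sod1, Cybb over Cyba and Rac2 over Rac1, with grey bars for controls and red bars for LPS. Each LPS bar is higher than both control bars, and for Cybb over Cyba the control bars of 0.0800 and 0.222 differ widely.

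The other genes around the oxidase and its products were read from 9 lists of 121 genes, of which 118 had a record and 67 were tested. Of the 67, 11 rose and none fell by edgeR, where 18 were higher and 2 lower at an unadjusted p below 0.05. Beside this and the count of each list below, 3.82% of all 6981 records tested were called higher and 1.7% lower. At an unadjusted p below 0.05 there were 1076 of these records in either direction. With so few lower calls over all records, none among 67 genes is not read as a result. Neither DESeq2 nor limma-voom called a gene of these lists lower. The median log2 fold change was 0.03. Without LPS replicate 1 or without LPS replicate 2, 7 were called higher. Without control replicate 1, 17 were higher and 4 lower (Bach1, Dock2, Hsp90b1 and Pla2g4a), and without control replicate 2, 16 were higher and 5 lower (Idh2, Irf8, Plcg2, Prdx6 and Prex1). In these last fits the LPS pair alone gives the spread, and the 9 genes are named, after their values were seen, only because they were called lower there. With GC and length offsets 15 were called higher, and without the filter on low counts 14. Genes near 0 in controls, such as Nos2, could enter the test only through LPS. The 11 called by edgeR include Nos2 and Ptgs2, which had also been listed beforehand as a check of the LPS response.

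Further oxidase components and chaperones besides the set, such as Rac1, gave no call among 5 tested genes. Of these, 1 had an unadjusted p below 0.05 in edgeR's test. It was Hmox1 (0.0228, adjusted p 0.212), which does not encode an oxidase subunit. Activators and regulators of the oxidase gave 0 calls among 14 tested genes, with 2 higher and 1 lower at an unadjusted p below 0.05 and 0 calls by DESeq2 or limma-voom. Prkca, a protein kinase C gene, was called higher with GC and length offsets and without the filter on low counts. The most abundant of them, Arhgdib, a cytosolic inhibitor that holds Rac proteins inactive, had 1104 and 818 normalised counts in the controls and 1055 and 949 after LPS. NADPH supply gave 0 calls among 9 tested genes in edgeR, DESeq2 and limma-voom and 0 at an unadjusted p below 0.05 in all 3. Its most abundant gene, Tkt, a transketolase of the pentose phosphate pathway, had 958 and 873 normalised counts in the controls and 921 and 853 after LPS. Other NADPH oxidases and their organisers (7 genes with a record, among them Nox1, Nox4 and Duox1) had no gene above the count filter, and 5 of the 7 had 0 counts in every library. Metal supply and other dismutase genes gave 0 calls among 4 tested genes, with 1 higher at an unadjusted p below 0.05 and 0 calls by DESeq2 or limma-voom. That gene, Slc25a37, the mitochondrial iron importer, was called higher with GC and length offsets and without the filter. The most abundant, Atox1, a copper chaperone, had 143 and 133 normalised counts in the controls and 156 and 121 after LPS.

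Among other hydrogen peroxide removers 1 of 6 tested genes rose. Prdx5, a peroxiredoxin found in mitochondria, peroxisomes and the cytosol, had 333 and 237 normalised counts in the controls and 599 and 585 after LPS, and its log2 fold change reached 1.06 with an adjusted p of 0.00958. With either LPS library removed the adjusted p of Prdx5 was 0.12. Prdx1, the most abundant peroxiredoxin by counts, had 1464 and 1626 normalised counts in the controls and 1598 and 1653 after LPS, with a log2 fold change of 0.07 (95% interval -0.31 to 0.45). Of 11 tested thioredoxin and glutathione genes 3 rose. Slc7a11, the cystine transporter subunit that feeds glutathione synthesis, had 12.7 and 32.1 normalised counts in the controls and 313 and 376 after LPS. Glrx, a glutaredoxin, had 36.6 and 29.5 in the controls and 65.6 and 84.1 after LPS (adjusted p 0.0292). Srxn1, the sulfiredoxin that restores overoxidised peroxiredoxins, had 94.2 and 102 in the controls and 194 and 191 after LPS (adjusted p 0.0181). Glrx was not called by DESeq2 (adjusted p 0.137), and without LPS replicate 1 or without LPS replicate 2 neither Glrx (0.0548 and 0.428) nor Srxn1 (0.301 and 0.279) was called. Txn1, the cytosolic thioredoxin and most abundant of this list by the mean over all 4 libraries, though not in the controls alone, had a log2 fold change of 0.06 (95% interval -0.35 to 0.46).

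**Figure D4:**
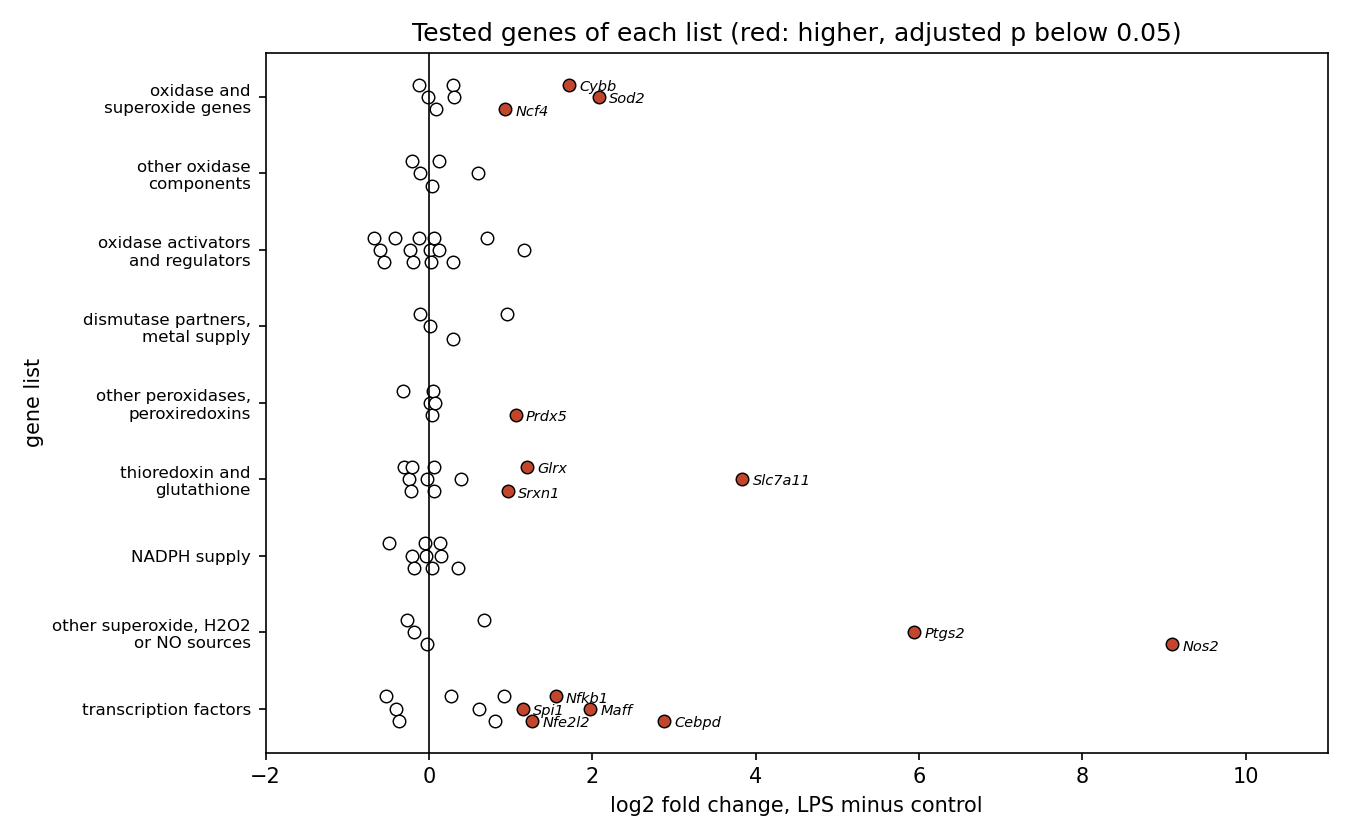
Log2 fold changes of LPS over control (horizontal) of every tested gene in the set and in the 8 lists with a tested gene (vertical), with red points and names for genes called higher in edgeR's test and open points for the rest. Red points stand in 4 of these lists and in the set. The point of Nos2 is a fitted value for a gene with 0 control counts, so its place depends on the prior count.

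Other sources of reactive oxygen and nitrogen had 2 rises among 6 tested genes. Both, Nos2 and Ptgs2, had also been listed beforehand as a check of the LPS response, so this count is no independent result for the list. Nos2, the inducible nitric oxide synthase whose product reacts with superoxide, had 0 counts in both controls and 69.3 and 67.5 normalised counts after LPS. Against a floor of 3 counts over the control group it was at least 43.2-fold higher. Ptgs2, whose cyclooxygenase and peroxidase activities make prostaglandin H2, had 42.2 and 54.0 normalised counts in the controls and 2821 and 3196 after LPS. Transcription factor genes linked to the oxidase and antioxidant genes had the largest share of calls, with 5 of 12 tested genes higher and a median log2 fold change of 0.87. Spi1, the gene of PU.1, a factor known to bind the promoters of oxidase subunit genes, had 580 and 438 normalised counts in the controls and 1121 and 1129 after LPS, a log2 rise of 1.15 at an adjusted p of 0.00391. Removing LPS replicate 1 took the adjusted p of Spi1 to 0.0514, and removing LPS replicate 2 took it to 0.0823. Nfkb1, an NF-kB subunit gene, had 207 and 161 in the controls and 545 and 527 after LPS. Nfe2l2, the gene of NRF2, had 218 and 186 in the controls and 490 and 476 after LPS. Cebpd and Maff had log2 fold changes of 2.88 and 1.97. All 5 lay without overlap above the controls, and Nfkb1, Nfe2l2, Cebpd and Maff were called under each of the leave-one-out fits.

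The identity of the cells was checked with marker genes. The summed level of 10 microglial and macrophage markers was 2179 to 2592 normalised counts in the controls and 2815 to 2829 after LPS. Without Spi1, 1 of the 10, it was 1741 to 2013 in the controls and 1686 to 1708 after LPS. Tyrobp and Csf1r were abundant, whereas Itgam had 0 counts in its 2 records, and Trem2 and Ptprc, also with several records, were near 0. Aif1 and Cx3cr1, which have 1 record each, were at most 8.32 normalised counts. Astrocyte, neuron, oligodendrocyte, fibroblast and endothelial markers summed to at most 1.96 normalised counts per list and library, with 21 of 24 genes at 0. Of these, Aqp4, Aldh1l1, Stmn2, Mog, Mag, Olig2, Sox10, Col1a1, Col1a2 and Cldn5 have 1 record each. The rest, Gfap and Mbp among them, have several, and as for Ncf1 their zeros are no measurement of expression. Neutrophil markers, relevant because neutrophils are rich in the oxidase, summed to 2.81 and 4.22 normalised counts in the controls and 2.77 and 4.89 after LPS, with Mpo and Ngp at 0 in their 1 record and S100a9 at 0 in its 2 records. In bulk RNA, fewer cells of a type and less RNA per cell cannot be told apart.

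**Figure D5:**
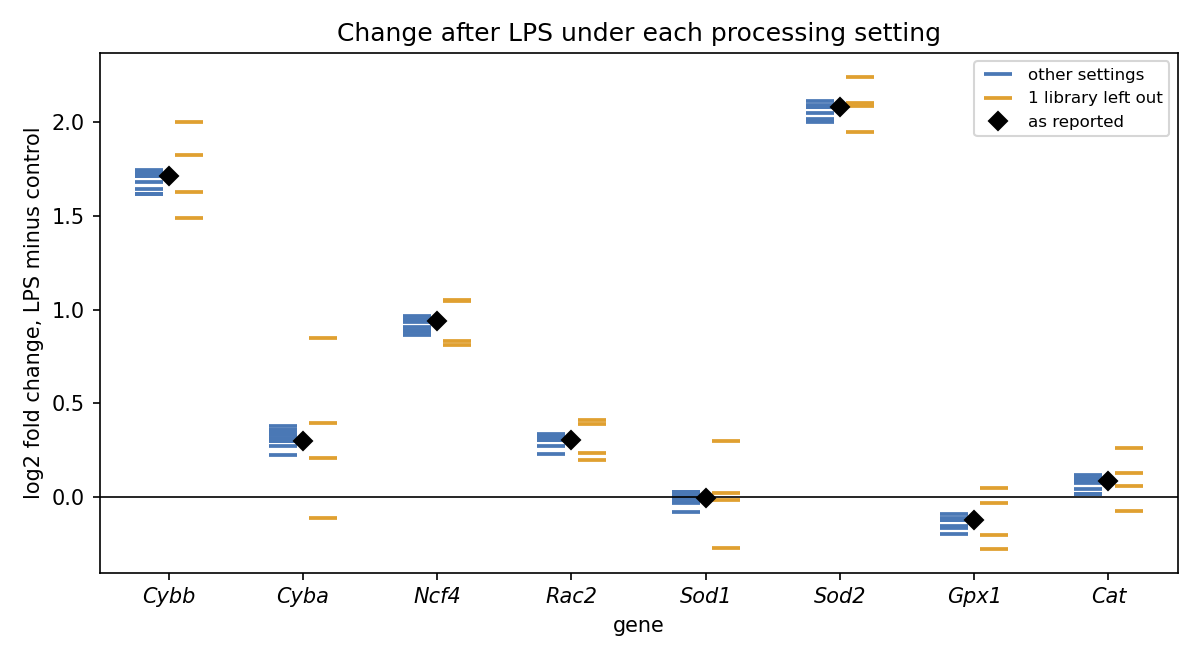
Log2 fold change of LPS over control (vertical) of the 8 tested genes (horizontal) as reported (black diamonds), under other processing settings (blue dashes) and with 1 library left out (orange dashes). Sod2, Cybb and Ncf4 stay above 0.8 in every fit, and the leave-one-out dashes of Cyba span -0.11 to 0.85.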

How the data were processed

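RNA was sequenced from 4 BV-2 libraries, 2 controls and 2 after LPS, after removal of ribosomal RNA and with random primers, per the labels' protocols. The authors deposited whole-number counts for each RefSeq transcript record. The table's name calls them normalised. However, the column totals differ, and the first whole number missing from any column is 229 or larger, so they were handled as raw. The tools listed per the submitters' processing notes are HTSeq 0.6.1, TopHat2 2.0.10, Cufflinks 2.2.1, CASAVA 1.8.2 and Trimmomatic 0.33, with the build mm10. What each tool did, its settings, the annotation release and the use of strand are not stated there.

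Symbols came from RefSeq tables (GRCm38.p6) for 32487 of 32915 records. Records were filtered with filterByExpr (minimum count 10), scaled by TMM and tested by edgeR 4.0.16 in R 4.3.3 without covariates. DESeq2 1.42.0, limma 3.58.1 and the other settings are in the closing section. The SE was derived from the F statistic. On simulated counts for this comparison, over 6872 records, 72% of 2-fold and 100% of 4-fold changes were recovered, and 3.91% of calls were false. The simulation gave both groups the same spread and no GC trend, and put changes only in records with a mean of at least 50 counts. Its rates therefore do not carry over to the wider, GC-dependent spread of the real controls or to low genes such as Cat. The genes, lists and tests were chosen with earlier results of these data known. Beside the 9 genes, the text names each called gene of a list, its most abundant tested gene, and Rac1 and Sod3. Other genes in the text, such as Ccs, Hmox1, Prkca, Prkcd, Mapk14 and Akt1, stand outside this rule and were named with their values known. Some genes that fall under this rule are not reported here. Intervals were built from this test's SE and so include the spread between libraries that edgeR estimated. Floors cover counting error only. The libraries carry no molecular identifiers. No protein sequence was used here.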

Additional observations from a re-analysis of the deposited data

How the results depend on the processing

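Cybb and Sod2 kept their direction and their call under all 15 alternatives, with log2 fold changes of 1.49 to 2.00 and 1.95 to 2.24. Ncf4 kept its direction in all 15 and lost its call in 3, at 0.94 in DESeq2 and within its leave-one-out range of 0.81 to 1.05. With GC and length offsets together with the replicate block, Cyba (0.36) and Rac2 (0.33) were called, which made 5 genes of the set. Leaving out 1 library at a time gave 2 to 5 called genes of the set, with ranges of -0.11 to 0.85 for Cyba, 0.20 to 0.41 for Rac2, -0.27 to 0.30 for Sod1, -0.28 to 0.046 for Gpx1 and -0.074 to 0.26 for Cat, and of -0.14 to 0.30 for Arhgdib, -0.17 to 0.19 for Atox1, -0.067 to 0.21 for Txn1 and -0.12 to 0.032 for Tkt. Sod1, at -0.0053, had positive values of 0.0086 with the 5 leading records left out, 0.027 without a filter, 0.027 in limma-voom and 0.012 with the replicate block. Other genes near 0 also turned sign. With upper-quartile factors Arhgdib was -0.0090, Atox1 -0.057 and Txn1 -0.011, and Atox1 was -0.017 under the filter on a mean of 50 and -0.0041 with the replicate block. With GC and length offsets Arhgdib was -0.030, Prdx1 -0.20 and Txn1 -0.12, and with the block added Arhgdib was -0.025, Prdx1 -0.19, Txn1 -0.11 and Tkt 0.00053. No direction is drawn from any of these, and the cause was not tested.

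Over all records, 267 were higher and 119 lower. There were 209 lower without a filter, 164 higher and 54 lower with a mean of at least 50 (4117 records tested), and 66 lower in DESeq2. With GC and length offsets 437 were higher and 336 lower, so that 56.5% and not 69.2% of calls were higher. Leaving out 1 library gave 165 to 723 higher and 39 to 581 lower. In the lists outside the set it gave 7 to 17 higher and 0 to 5 lower. The replicate numbers of the titles pair nothing that the labels name, and the deviations of same-numbered libraries had a correlation of 0.242 across records. With the replicate block 401 were higher and 288 lower, with 17 higher in the lists. With the block and the GC and length offsets 558 were higher and 539 lower, and 19 higher and 3 lower in the lists. Apart from Cyba and Rac2, no call of the set changed with a block. Adding the records of a gene together could not change the levels of the 8 tested genes, which have 1 record each. Catalase, at 25 to 44 reads per library, is where depth limits most. Cat fell below the filter at a mean of 50 and has no value there.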

Other observations

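Several genes that belong beside the set share the state of Ncf1 in this table. Of the 51 genes of the lists that had a record and were not tested, 33 had several records. Among them were Gpx4, the glutathione peroxidase of membrane lipids, with at most 3 counts per library in its leading record, and Cybc1, the chaperone of the NOX2 and p22phox pair, with at most 2. Txnrd1, the cytosolic thioredoxin reductase, had at most 3 counts in its leading record, and Hvcn1, the proton channel that sustains oxidase activity, had at most 3. Idh1 and Me1, cytosolic sources of NADPH, and Cebpb, a factor of macrophage activation, had 0 counts in every record. These genes are named for having several records and counts near 0, after their values were seen, and whether LPS changed them was not tested.

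Slc25a37 had 45.0 and 28.7 normalised counts in the controls and 66.6 and 72.4 after LPS, without overlap, and did not pass (adjusted p 0.103). Hif1a, the gene of an oxygen-regulated transcription factor, had 177 and 300 in the controls and 379 and 537 after LPS and did not pass (adjusted p 0.0733). Both were called with GC and length offsets, without the filter on low counts and without control replicate 1, and Hif1a also without control replicate 2. Both were named after their values were seen. Of the protein kinase C genes tested, Prkcd, whose kinase phosphorylates p47phox, had 78.8 and 119 in the controls and 146 and 182 after LPS (adjusted p 0.173), and Prkca had 19.7 and 21.1 against 50.8 and 41.1 (adjusted p 0.0577). Prkca was called with GC and length offsets, without the filter and without either control library, and Prkcd without control replicate 2. In the fits without a control library the LPS pair alone gives the spread.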
